A study of Homo sapiens with 18 samples.

Results

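The genes described here are the HOXB homeobox genes of human chromosome 17 and HOXB-AS3, a non-coding RNA transcribed from the opposite strand of the same cluster. They were taken as every row of the gene table whose symbol is HOXB followed by a number, plus HOXB-AS3. The rule found 10 of 14079 genes, namely HOXB2 to HOXB9, HOXB13 and HOXB-AS3. HOXB2, HOXB3 and HOXB-AS3 passed the filter on low counts and were among the 10031 genes tested. The other 7 did not pass, and since the filter keeps a gene through the groups in which it is high, the 3 that passed do not stand for the cluster.

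The assay was CAGE (cap analysis of gene expression), in which each sequenced tag marks the capped 5′ end of an RNA. The 18 libraries fall into 6 groups of 3: the acute myeloid leukaemia line labelled AML3 with JQ1, with OTX015 and with vehicle (DMSO), and the line labelled AML2 with JQ1, with OTX015 and with vehicle. The count tables name the lines OCI-AML3 and OCI-AML2. As background, OCI-AML3 is a standard line with a mutated NPM1 gene and OCI-AML2 lacks that mutation, while the labels state no genotype for either. Both compounds are thienotriazolodiazepines that block the bromodomains with which BET proteins read acetylated histones. OTX015 is also known as birabresib. The labels give neither dose nor time of treatment, and nothing states that the 3 libraries of a group came from separate cultures, so p-values measure the spread between these libraries, which may be technical.

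HOX genes encode transcription factors that set position along the body axis, and the genes of a cluster lie in the order in which they are used along it. In blood formation, anterior HOXB genes such as HOXB4 and HOXB3 are active in stem and progenitor cells and are shut down as cells mature. HOXB and HOXA genes are expressed together at high level in leukaemias with mutated NPM1, and their products bind DNA together with TALE cofactors such as MEIS1. The microRNA gene MIR10A lies inside the cluster, on the same strand as the HOXB genes.

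Gene tags per library numbered 303883 to 1024704 in the 6 AML3 libraries with an inhibitor, against 822070 to 1864643 in the 3 AML3 vehicle libraries. In AML2 the ranges were 452667 to 1290954 tags with an inhibitor and 957036 to 2163106 with vehicle. Levels are CPM (counts scaled to library size) after correction by TMM factors of 0.7689 to 1.554. Differences are log2 fold changes with their standard error (SE) from edgeR's quasi-likelihood test, called at an adjusted p (Benjamini-Hochberg, over all genes tested) under 0.05. The inhibitor groups differed from vehicle in ways that move with every comparison of inhibitor and vehicle below. MALAT1, a nuclear non-coding RNA, took 5.35% to 6.75% of the gene tags in AML3 with an inhibitor, against 0.148% to 0.291% with vehicle. Of 9 myeloid marker genes, 8 were analysed, and their summed level was 505 to 682 CPM with JQ1 and 478 to 626 CPM with OTX015, against 1470 to 1850 CPM with vehicle in AML3. KIT was at 0 tags in all 9 AML3 libraries. In AML2 the sum was 1200 to 1320 CPM with JQ1, 969 to 1310 CPM with OTX015 and 2120 to 2790 CPM with vehicle. CD79A was the lymphoid marker analysed and had 0 tags in AML3. COL1A2 was the fibroblast marker analysed and reached at most 5.46 CPM in AML3, with an inhibitor. The part of these differences in the HOXB results was not tested, and fewer cells of a type and less RNA per cell cannot be told apart in bulk libraries.

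Where the tags fell within the cluster set the frame for the gene values. For every HOXB gene and HOXB-AS3, the gene's counts equalled the sum of 1 unbroken run of promoters on 1 strand in all 18 libraries, so the starts behind each value are known. All 9 HOXB genes were read from the minus strand and HOXB-AS3 from the plus strand. HOXB3 tags came from 2 clusters, chr17:46667594-46667619 with 932 tags over all libraries and chr17:46667628-46667642 with 74 tags (hg19, as the promoter names give it). HOXB-AS3 tags came almost entirely from chr17:46667774-46667790 (hg19, plus strand), with 2792 tags, and 5 tags came from a downstream cluster. Only 131 bases separated the upstream HOXB3 cluster from this HOXB-AS3 cluster, and 154 bases lay between the leading cluster of each, so the 2 RNAs started back to back and ran away from each other. The leading HOXB3 cluster lay 11802 bases upstream of the leading HOXB4 cluster, chr17:46655730-46655791, which places this start of HOXB3 beyond HOXB4. HOXB2 tags were spread over 12 clusters between positions 46620898 and 46622477, led by chr17:46622205-46622218 with 87 tags.

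The annotation has such a pair of starts as well. In GENCODE release 29 (GRCh38), HOXB3 lies at chr17:48548870-48604912 and has 13 transcripts, of which 4 start 148 to 246 bases from the start of a HOXB-AS3 transcript. HOXB-AS3 lies at chr17:48549630-48606414 with 15 transcripts, 4 of them in such a pair. The 4 paired HOXB3 transcripts are among the 6 that span MIR10A (chr17:48579838-48579947, minus strand), and HOXB4 lies at chr17:48575513-48580111. Spacings were compared within each build, and no coordinate was converted. Below is the mature microRNA whose gene the paired HOXB3 transcripts span (chr17:48579904-48579926, minus strand, RefSeq, GRCh38.p14), with its seed, bases 2 to 8, in capitals. It is shown for what lies downstream of the paired start. CAGE of capped ends did not measure the mature microRNA.
hsa-miR-10a-5p: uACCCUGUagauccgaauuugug

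**Figure D1:**
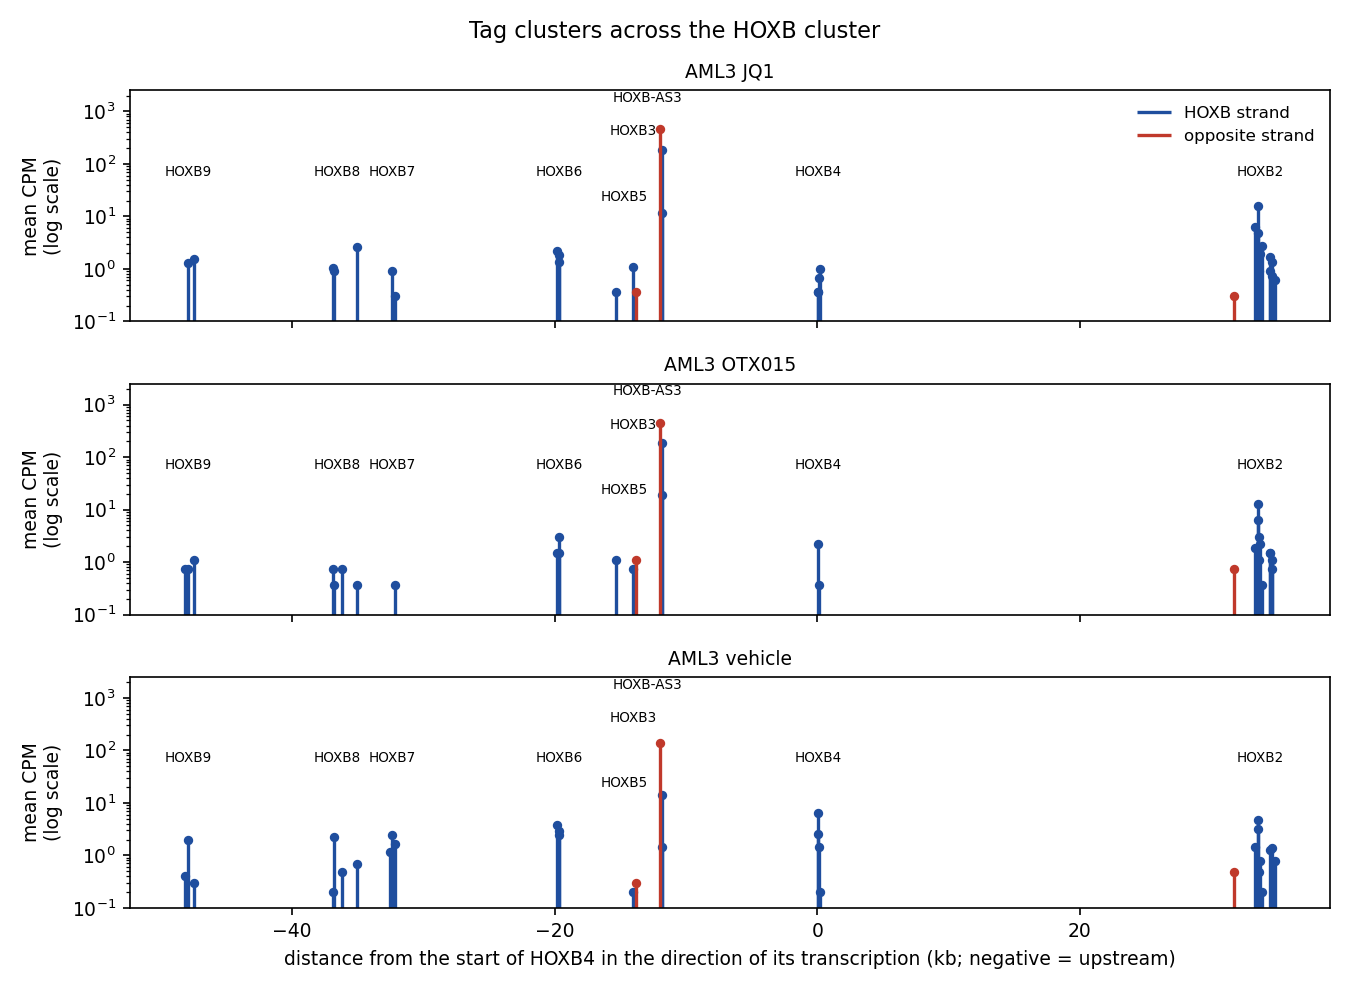
Mean CPM of each tag cluster (log axis, 3 libraries per panel) against its distance in kb from the start of HOXB4, for AML3 with JQ1, OTX015 and vehicle. Clusters with 0 tags in a panel and HOXB13, which lies further upstream, are not drawn; the unlabelled plus-strand cluster beside HOXB2 is HOXB-AS1. The leading HOXB3 and HOXB-AS3 clusters, 154 bases apart, are the highest in every panel, and the leading HOXB4 cluster is lower in both inhibitor panels than in the vehicle panel.

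The cluster was used in AML3 and was close to silent in AML2. The 10 genes had 4235 of 8114130 gene tags in the 9 AML3 libraries, against 1 of 10128649 in the 9 AML2 libraries. That tag belonged to HOXB4, in AML2 with OTX015. With vehicle, HOXB-AS3 had 201, 132 and 121 tags in AML3 (118, 114 and 172 CPM) and 0 in each AML2 library. HOXB3 had 23, 22 and 9 tags in AML3 (13.5, 19 and 12.8 CPM) and 0 in AML2, and HOXB2 had 13, 18 and 13 tags in AML3 (7.62, 15.6 and 18.4 CPM) and 0 in AML2. With AML2 at 0 and these 3 genes kept by the filter through AML3, a lack of overlap between the lines was close to fixed. The share of all genes without such overlap was not computed.

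Against a floor of 3 tags over the AML2 vehicle group (0.787 CPM), HOXB-AS3 was at least 171-fold higher in AML3, HOXB3 at least 19.2-fold and HOXB2 at least 17.6-fold. The adjusted p of edgeR's test was 4.91e-10 for HOXB-AS3, 3.64e-07 for HOXB3 and 3.62e-05 for HOXB2. These 3 genes were called higher in AML3, where 11.4% of all genes tested were, but they had passed the filter through AML3 alone. With JQ1 the same 3 were called higher in AML3 than in AML2, against 20.1% of all genes, and with OTX015 likewise, against 18.9%. The bounds were then at least 396-fold with JQ1 and at least 351-fold with OTX015 for HOXB-AS3, and at least 167-fold and at least 158-fold for HOXB3. Floors cover counting error in AML2 only, and the AML3 mean was taken as measured. Of the genes below the filter, the AML3 vehicle mean was 13.2-fold the AML2 vehicle floor for HOXB4, 11.6-fold for HOXB6 and 6.59-fold for HOXB7. It was 4.47-fold for HOXB8, 3.28-fold for HOXB9 and 2.43-fold for HOXB13. For these low genes the folds are no lower bounds, since HOXB8, HOXB9 and HOXB13 had 9, 8 and 6 tags over that AML3 group. HOXB8 stood at 1.17, 0.865 and 8.51 CPM there. HOXB5 had 1 tag in the AML3 vehicle group, below the floor, so no fold is given.

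With both compounds, HOXB3, HOXB-AS3 and HOXB2 rose in AML3. HOXB3 rose most and HOXB4, beside it in the cluster, had fewer tags. In JQ1 HOXB3 had 191, 185 and 120 tags (170.0, 196.0 and 216.0 CPM) and in OTX015 183, 175 and 98 (200.0, 192.0 and 211.0 CPM), against 23, 22 and 9 tags (13.5, 19 and 12.8 CPM) with vehicle. All 6 inhibitor libraries lay far above all 3 vehicle libraries. The share of all genes whose inhibitor and vehicle libraries separate was not computed, here or for the genes below. The log2 fold change of HOXB3 was 3.66 (SE 0.24, adjusted p = 8.66e-10) with JQ1 and 3.71 (SE 0.24, adjusted p = 4.7e-10) with OTX015. The call held in every alternative tried, with values of 3.52 to 4.10 for JQ1 and 3.59 to 4.22 for OTX015.

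HOXB-AS3 had 558, 488 and 205 tags with JQ1 (496, 516 and 370 CPM) and 490, 467 and 135 with OTX015 (535, 511 and 291 CPM), against 201, 132 and 121 with vehicle (118, 114 and 172 CPM). The groups did not overlap, and the libraries numbered 3, which are the shallowest of each group, were the lowest of both inhibitor groups and the highest of the vehicle group. Its log2 fold change was 1.79 (SE 0.27, adjusted p = 2.64e-05) with JQ1 and 1.75 (SE 0.28, adjusted p = 2.75e-05) with OTX015. Without the libraries numbered 3 it remained called in both comparisons. HOXB-AS3 was the most abundant of the 10 genes in each AML3 group, at 461 ± 79.2 CPM with JQ1, 446 ± 135 CPM with OTX015 and 135 ± 32.1 CPM with vehicle (SD, n = 3 each).

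HOXB1, at the end of the cluster furthest from HOXB13 (chr17:48528526-48531001, GRCh38), had no row in the gene table. HOXB2, the next gene, had 40, 51 and 16 tags with JQ1 (35.6, 53.9 and 28.9 CPM) and 34, 38 and 8 tags with OTX015 (37.1, 41.6 and 17.2 CPM), against 13, 18 and 13 tags with vehicle (7.62, 15.6 and 18.4 CPM). The JQ1 libraries lay above all vehicle libraries, while OTX015 replicate 3 lay within the vehicle range. The log2 fold change was 1.63 (SE 0.37, adjusted p = 0.00119) with JQ1 and 1.38 (SE 0.38, adjusted p = 0.00486) with OTX015. Its vehicle counts alone did not meet the filter, so HOXB2 was tested because it was high with an inhibitor. In edgeR's fit with no filter the values were 1.62 (adjusted p = 0.000523) with JQ1 and 1.37 (adjusted p = 0.00324) with OTX015. Without vehicle replicate 1, which had the lowest level, the OTX015 value was 0.99 (adjusted p = 0.0541) and the call was lost. Of all genes tested, 26.8% were called higher with JQ1 and 28.8% with OTX015 in AML3, so calls of this kind were common. Scaling by library size alone moved the median of all genes to 0.44 with JQ1 and 0.51 with OTX015, against 0.04 and 0.03 with TMM. HOXB3, HOXB-AS3 and HOXB2 were called higher under each scaling.

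**Figure D2:**
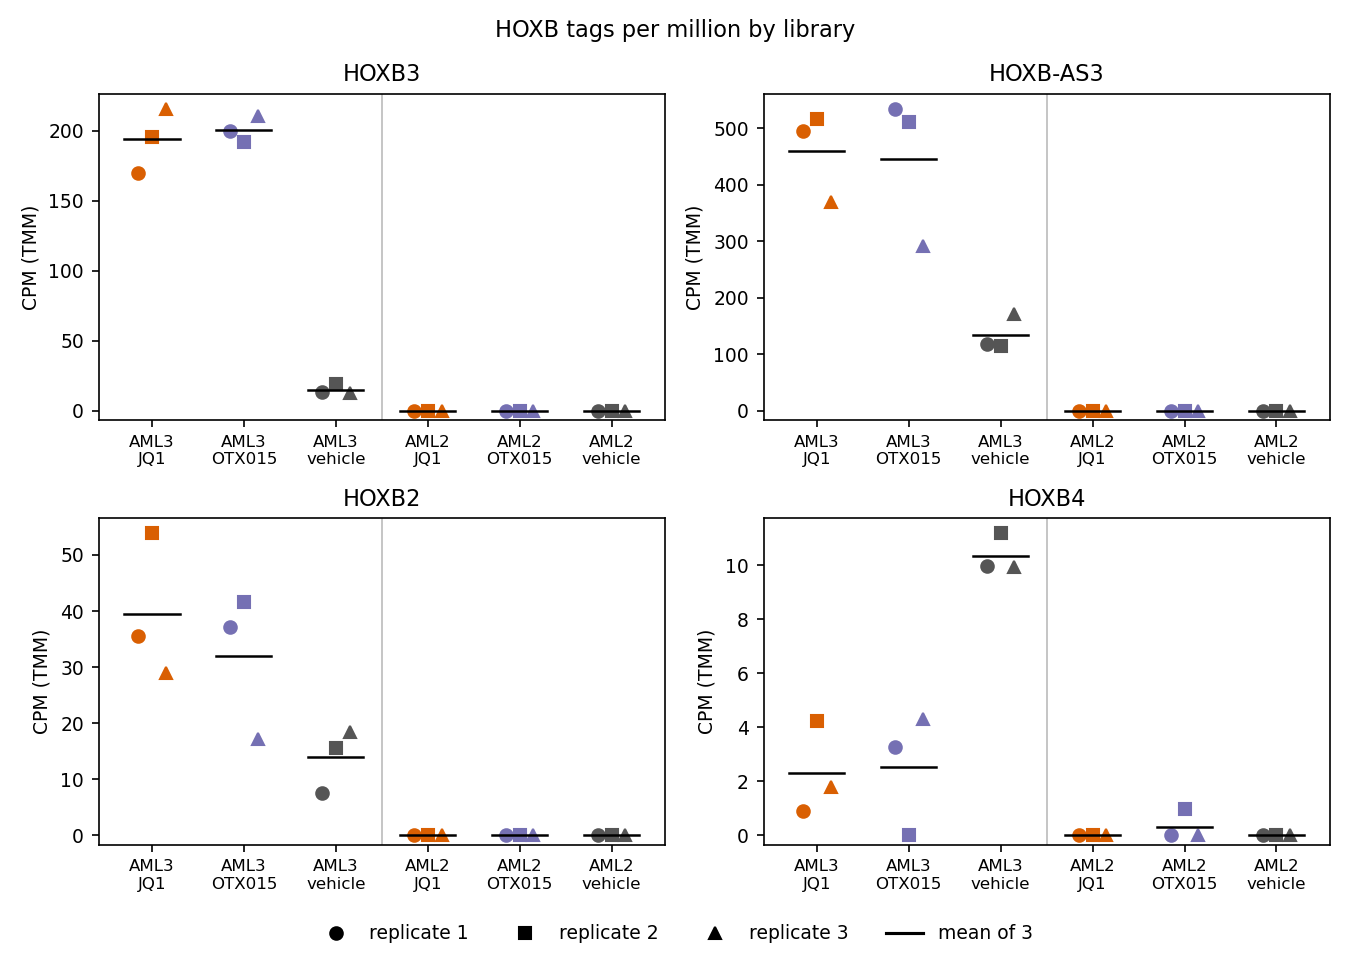
CPM of HOXB3, HOXB-AS3, HOXB2 and HOXB4 in each library, with the mean of 3 libraries as a line and the replicate number as the marker. HOXB3 and HOXB-AS3 lie higher with JQ1 and OTX015 than with vehicle in AML3 without overlap, HOXB2 overlaps between OTX015 and vehicle, HOXB4 lies lower with both compounds, and AML2 is at 0 except for 1 HOXB4 tag.

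HOXB4, which marks stem and progenitor cells and can expand them when forced on, had 1, 4 and 1 tags with JQ1 (0.889, 4.23 and 1.8 CPM) and 3, 0 and 2 with OTX015 (3.28, 0 and 4.31 CPM), against 17, 13 and 7 with vehicle (9.97, 11.2 and 9.93 CPM). The inhibitor groups lay below the vehicle group without overlap. It is below the filter, and a fit over all 14079 genes gave a log2 fold change of −2.14 (SE 0.66, adjusted p = 0.00979) with JQ1 and −2.18 (SE 0.69, adjusted p = 0.0104) with OTX015. In that fit 18.2% of genes were called lower with JQ1 and 19.9% with OTX015. DESeq2 gave −2.18 (adjusted p = 0.0851) and −2.17 (adjusted p = 0.0879), so the call depends on the test. It was also lost with library size alone (−1.77, adjusted p = 0.0503, and −1.73, adjusted p = 0.0629), without JQ1 replicate 1 (−1.65, adjusted p = 0.0802) and without OTX015 replicate 2 (−1.50, adjusted p = 0.101).

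The more posterior genes, HOXB5 to HOXB13, carried few tags. HOXB7 had 2, 0 and 1 tags with JQ1 and 1, 0 and 0 with OTX015, against 10, 3 and 5 with vehicle, without overlap. Its log2 fold change in the fit with no filter was −2.04 (SE 0.86, adjusted p = 0.0593) with JQ1 and −3.21 (SE 1.08, adjusted p = 0.0156) with OTX015. DESeq2 did not call it with OTX015 (adjusted p = 0.218), and the call was lost without vehicle replicate 1 (−3.01, adjusted p = 0.0596) and without OTX015 replicate 2 (−2.63, adjusted p = 0.0852); with JQ1 it was gained without vehicle replicate 2 (−2.35, adjusted p = 0.0448). HOXB6 averaged 5.25 ± 3.27 CPM with JQ1 and 5.81 ± 2.54 CPM with OTX015, against 9.09 ± 4.43 CPM with vehicle (SD, n = 3 each), and was called in neither comparison. HOXB5, HOXB8, HOXB9 and HOXB13 had 0 to 9 tags per AML3 library and were called in neither comparison. The tags of HOXB5 to HOXB9 and HOXB13 together came to 17.3 ± 2.63 CPM with JQ1 and 14.2 ± 5.08 CPM with OTX015, against 22.5 ± 12.7 CPM with vehicle (SD, n = 3 each). The vehicle spread covers all 3 means. HOXB-AS1, an antisense RNA near HOXB2 that is not counted among the 10 genes, had 4 tags in all.

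With HOXB3 up and HOXB4, whose call depends on the test, at fewer tags, the make-up of the cluster was compared within libraries. This needs no scaling between them, but the rise of HOXB3 alone lowers the shares of the other genes. HOXB3 took 72.0% to 87.5% of the tags of the 9 HOXB genes in the 6 inhibitor libraries of AML3, against 16.4% to 32.4% in the 3 vehicle libraries. HOXB4 took 0% to 1.79% with an inhibitor, against 12.7% to 20.5% with vehicle. HOXB5 to HOXB9 and HOXB13 took 3.57% to 8.66%, against 22.1% to 47.3%, while their summed CPM stayed within the vehicle spread. HOXB2 took 7.14% to 19.8%, against 15.7% to 26.5%, and its ranges overlapped.

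**Figure D3:**
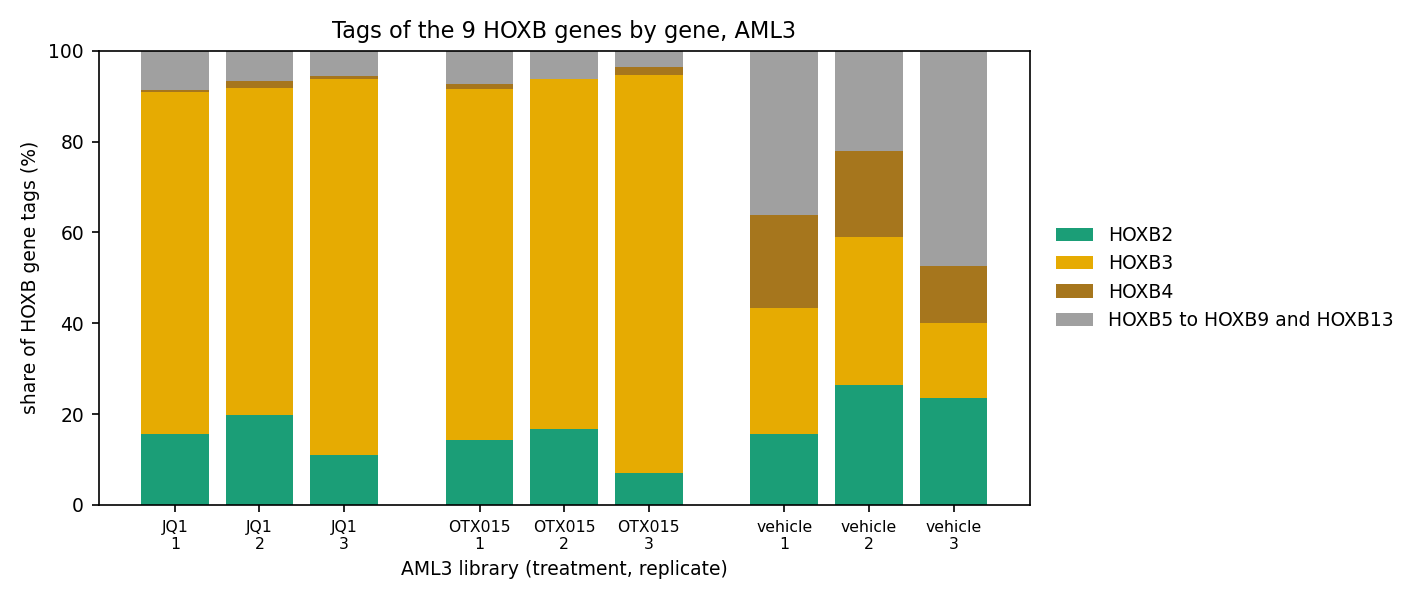
Share of the tags of the 9 HOXB genes that each gene took in every AML3 library, in percent. HOXB3 takes 72.0% or more in the inhibitor libraries and 32.4% or less in the vehicle libraries.

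Ratios between genes, as log2 of counts plus 0.5, restate this within-library change. All 3 are taken over HOXB3, so their fall largely follows from its rise given above, and their tests are not separate support. The ratio of HOXB4 to HOXB3 averaged −6.36 ± 1.21 over the 6 inhibitor libraries, against −0.50 ± 0.21 over the 3 vehicle libraries (SD), a difference of −5.86. The ratio of HOXB2 to HOXB3 averaged −2.52 ± 0.60 with an inhibitor, against −0.19 ± 0.66 with vehicle, a difference of −2.32. The ratio of HOXB-AS3 to HOXB3 averaged 1.17 ± 0.44 with an inhibitor, against 3.11 ± 0.56 with vehicle, a difference of −1.94. In each of the 3 ratios all inhibitor libraries lay below all vehicle libraries, and the two-sided exact permutation test gave p = 0.0238, also after adjustment over the 3, the smallest value that 6 against 3 libraries allow. Same-numbered JQ1 and OTX015 libraries deviated together, so they are not fully independent. With each such pair averaged, chosen after seeing the data, the differences were the same and the exact permutation p was 0.1, the smallest that 3 against 3 allow, which does not pass 0.05. HOXB3 and HOXB-AS3, whose leading clusters lie 154 bases apart, both rose, and HOXB3 rose more.

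The same tags were also tested by promoter. Each gene's counts are the sum of its promoters, so these tests are no separate support for the rise. The leading HOXB3 cluster stood at 187 ± 25.6 CPM with JQ1 and 187 ± 4.83 CPM with OTX015, against 13.9 ± 3.31 CPM with vehicle (SD, n = 3 each), with log2 fold changes of 3.71 (SE 0.26, adjusted p = 4.81e-10) and 3.72 (SE 0.26, adjusted p = 3.09e-10). Its minor cluster had 11, 14 and 5 tags with JQ1 and 14, 13 and 12 with OTX015, against 2, 2 and 1 with vehicle, and rose by 2.90 (SE 0.63, adjusted p = 0.000599) and 3.53 (SE 0.60, adjusted p = 4.13e-05). The leading HOXB-AS3 cluster rose by 1.79 (SE 0.28, adjusted p = 2.1e-05) with JQ1 and 1.76 (SE 0.28, adjusted p = 2.23e-05) with OTX015. The leading HOXB2 cluster had 13, 20 and 8 tags with JQ1 and 14, 17 and 2 with OTX015, against 3, 4 and 6 with vehicle, and rose by 2.0 (SE 0.57, adjusted p = 0.00616) and 1.83 (SE 0.59, adjusted p = 0.012). Of all promoters tested, 26.5% were called higher with JQ1 and 28.4% with OTX015. The HOXB3 clusters and the leading HOXB2 cluster did not meet the filter by their vehicle counts alone. They were tested because they were high with an inhibitor.

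The use of starts within a gene did not measurably shift. The leading cluster held 92.5% ± 2.71 of HOXB3 tags with an inhibitor, against 90.4% ± 1.3 with vehicle (SD, 6 and 3 libraries), a difference that gave p = 0.238 by the exact permutation test (adjusted p = 0.286 over 2 genes). For HOXB2 the share was 38.8% ± 8.91 with an inhibitor, against 30.5% ± 13.6 with vehicle (exact permutation p = 0.286). A p of this size does not show that the shares are alike.

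The 2 compounds were compared directly in AML3. OTX015 minus JQ1 was 0.05 for HOXB3 (95% interval −0.34 to 0.45), −0.04 for HOXB-AS3 (−0.59 to 0.51) and −0.25 for HOXB2 (−0.96 to 0.46) on the log2 scale, each with an adjusted p of 1.0 by edgeR. For HOXB4, in the fit with no filter, it was −0.05 (−1.91 to 1.81). No gene of the 10031 was called between the compounds (0.0%) by edgeR, with 253 at an unadjusted p under 0.05, and DESeq2 called 0, with 229 at that level. These fits and the intervals above leave out the pairing by replicate number. With that number as a block, edgeR also called 0, with 335 at that level. Doses and times are unknown, and these values do not show that the compounds act alike.

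In AML2 the compounds left the cluster at 0 tags, apart from the 1 HOXB4 tag. The 3 tags of the floor correspond to 1.16 CPM in AML2 with JQ1 and 1.27 CPM with OTX015, so the level that OTX015 and JQ1 reached in AML3 was not approached for HOXB3. A difference between the compounds' effects in the 2 lines cannot be estimated from counts of 0, and edgeR's test of it called none of the 3 genes tested, while 6.94% of all genes were called in it for JQ1 and 7.65% for OTX015.

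**Figure D4:**
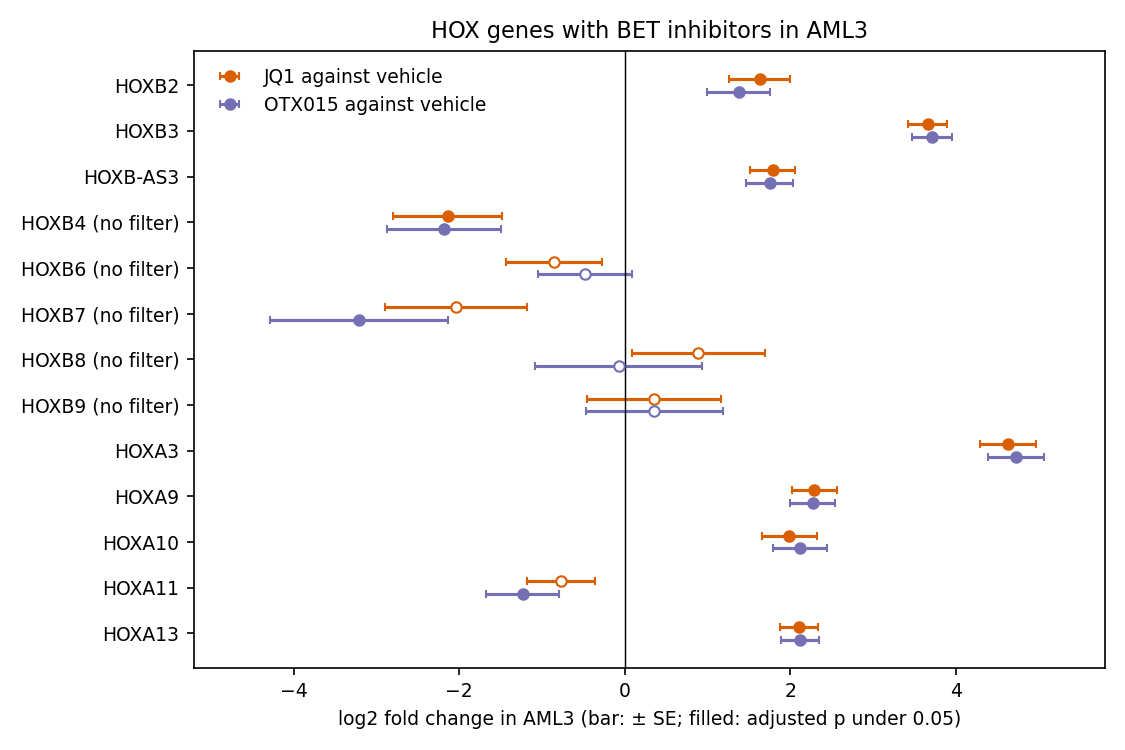
Log2 fold change of JQ1 and OTX015 against vehicle in AML3, with bars of 1 SE and filled points where the adjusted p of edgeR was under 0.05. HOXB2, HOXB3 and HOXB-AS3 are from the filtered fit, HOXB4 and HOXB6 to HOXB9 from the fit with no filter. HOXB5 and HOXB13 are not drawn. HOXB3 and HOXA3 lie furthest to the right, at 3.66 and 4.63 with JQ1.

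Other HOX genes, TALE cofactors and neighbouring genes are set beside the cluster from lists chosen with earlier results of these data known. Their counts are read against all genes tested, of which 26.8% were called higher and 24.1% lower with JQ1, and 28.8% higher and 26.1% lower with OTX015. Of 29 other HOX genes 7 were tested, and 4 rose and 0 fell with JQ1, with a median of 1.99, against 0.04 over all genes. With OTX015 4 rose and 1 fell, with a median of 2.12, against 0.03. HOXA3, the paralogue of HOXB3, averaged 147 ± 29.2 CPM with JQ1 and 157 ± 22.4 CPM with OTX015, against 6.5 ± 4.24 CPM with vehicle (SD, n = 3 each), a log2 fold change of 4.63 (SE 0.34, edgeR adjusted p = 4.31e-10) and 4.73 (SE 0.34, edgeR adjusted p = 1.88e-10). HOXA9, HOXA10 and HOXA13 also rose with both, by 1.99 to 2.29, and HOXA11 fell with OTX015 (−1.23, edgeR adjusted p = 0.0209). Of 8 TALE genes tested, 4 rose with each compound (MEIS1, MEIS3, PKNOX1 and TGIF1) and MEIS2 fell with JQ1, with medians of 0.78 and 0.99. MEIS3 averaged 23.5 ± 1.35 CPM with JQ1 and 18.5 ± 5.78 CPM with OTX015, against 0.957 ± 0.423 CPM with vehicle (SD, n = 3 each), a log2 fold change of 4.60 (SE 0.56, edgeR adjusted p = 1.78e-06) and 4.29 (SE 0.59, edgeR adjusted p = 5.51e-06). The vehicle counts of MEIS3 did not meet the filter in either line, so it was tested because it was high with an inhibitor. MEIS1, the cofactor that HOX proteins bind in leukaemia, rose by 1.12 with JQ1 (edgeR adjusted p = 0.000511) and 1.39 with OTX015 (edgeR adjusted p = 3.52e-05).

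Genes beside the cluster on chromosome 17 were called in both directions. Of 15 tested, 3 were higher and 4 lower with JQ1 (median −0.12), and 2 were higher and 4 lower with OTX015 (median −0.24), below or near the shares of all genes given above. CDK5RAP3 and NFE2L1 rose with both, while ATP5MC1, CALCOCO2 and COPZ2 fell with both. In AML3 vehicle libraries COPZ2, a coatomer subunit gene, stood at 72.4 ± 6.7 CPM, against 1.84 ± 1.92 CPM in AML2 (SD, n = 3 each), called higher in AML3 (edgeR adjusted p = 1.06e-09), and it fell by 1.08 (adjusted p = 0.00375) with JQ1 and 1.35 (adjusted p = 0.000757) with OTX015. Among 8 retinoid genes tested, JQ1 raised 1 and lowered 1, and OTX015 raised 1 and lowered 2, each share below or near that of all genes. RDH10, a retinol dehydrogenase, rose by 3.04 and 2.56, and DHRS9, another enzyme of retinoid metabolism, fell by 1.57 and 3.04. At 2.02 CPM with vehicle in AML3, RDH10 did not pass the filter through that group. Of 18 genes of the MLL, menin and DOT1L list, whose proteins keep HOX genes active, JQ1 raised 7 and lowered 1, and OTX015 raised 6 and lowered 1. Over all genes tested, JQ1 raised 26.8% and lowered 24.1%, and OTX015 raised 28.8% and lowered 26.1%. AFF4 rose by 1.30 and 1.6, MLLT3 by 2.90 and 3.03, and KMT2B by 1.25 and 1.37 with JQ1 and OTX015. MLLT3 averaged 1.81 CPM in AML3 and 7.29 CPM in AML2 with vehicle, and did not pass the filter through these groups. Of 26 Polycomb genes, whose proteins silence HOX clusters, JQ1 raised 8 and lowered 1, and OTX015 raised 9 and lowered 3. The shares raised were near those of all genes, and the shares lowered were below them. PHC3 rose by 1.49 with JQ1 and 1.6 with OTX015.

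The genes whose pattern over the 18 libraries was most like that of a tested member are given as a description. They are the 3 with the highest Pearson r of log2 CPM among 8705 genes. They were H1F0 (0.987), UNCX (0.987) and CDYL2 (0.987) for HOXB2. For HOXB3 they were RNVU1-8 (0.996), SGSH (0.994) and DLEU7-AS1 (0.991), and for HOXB-AS3 H1F0 (0.998), MKX (0.997) and UNCX (0.996). All of these genes averaged under 0.5 CPM in each AML2 group, so the points share the difference between lines. With Spearman's correlation 1 of these 3 genes was again among the 3 for HOXB2, and 0 for HOXB3 and for HOXB-AS3, so the list depends on the measure. Over the 9 AML3 libraries alone other genes led, ENGASE (0.998), WDR37 (0.996) and SERPINI1 (0.996) in the case of HOXB3. Within AML3, the 3 tested members followed each other with r = 0.77 for HOXB2 and HOXB3 and r = 0.91 for each of them with HOXB-AS3 (9 libraries, which share the treatment groups and depth).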

How the data were processed

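CAGE libraries were made from total RNA, per the labels' protocols. Counts of tags per gene symbol, promoter and enhancer were deposited by the authors as whole numbers, without normalization. STAR and the hg38 build are named in the submitters' processing notes, and no version, promoter definition or counting tool is given there. All promoters of these genes have names with hg19 coordinates. The tables were used as deposited. Counts of genes and promoters were fitted with edgeR 4.0.16 (R 4.3.3): filterByExpr over the 6 groups, TMM scaling, 1 mean per group, all 18 libraries (12 residual degrees of freedom), two-sided quasi-likelihood tests and Benjamini-Hochberg adjustment over all genes tested. The code was tested on simulated data. DESeq2 1.42.0 was an alternative, as were other scalings, no filter, the replicate number as a block, and fits without single libraries. HOXB members and gene lists were chosen with earlier results of these data known. The genes named are the members, the 3 genes most like each tested member, from each list genes among the 3 with the smallest adjusted p per compound, and any HOX gene or neighbour; MEIS2, PKNOX1 with JQ1 and TGIF1 with OTX015 were named for a count after their values were seen. Same-numbered libraries of OTX015 and JQ1 deviated together in AML3 (correlations 0.374, 0.351 and 0.623) and in AML2 (0.121, 0.158 and 0.347), as did AML3 and AML2 with JQ1 (0.123, 0.106 and 0.246), so numbers were taken to pair those groups. AML3 and AML2 with OTX015 (0.0734, 0.16 and 0.231) and JQ1 and vehicle in AML2 (0.114, 0.056 and 0.164) came near these values, so numbers may pair them too. Correlations in the remaining comparisons ran from −0.0531 to 0.136.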

Additional observations from a re-analysis of the deposited data

Results flagged for a closer look

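An enhancer row named in hg19 at chr17:46654606-46654947, 783 bases downstream of the leading HOXB4 cluster, carried signal in a table that the comparisons above do not use. It had 6, 2 and 6 tags in AML3 with JQ1 and 4, 9 and 2 with OTX015, 29 in all, against 0, 0 and 1 with vehicle, and 0 in AML2. Tags over all enhancers numbered 7646, 6324 and 5485 in AML3 with JQ1 and 7180, 6991 and 4454 with OTX015, against 6240, 4063 and 2377 with vehicle. Gene tags were 303883 to 1024704 with an inhibitor, against 822070 to 1864643, so enhancer tags as a whole were high for the depth. How many of the 3863 enhancers separated the groups was not counted. At this enhancer the inhibitor libraries lay above the vehicle libraries without overlap while HOXB4 itself had fewer tags, and the difference was not tested. It is the enhancer row of the cluster with the most tags: 4 others, whose names carry no build and which lie in the cluster if read as GRCh38, had 1 to 4 tags in AML3 with JQ1, 1 to 5 with OTX015 and 1 to 3 with vehicle over the 3 libraries, and show no such separation.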

How the results depend on the processing

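Of the 10 genes, 3 were called in each of the 3 line comparisons and each of the 2 AML3 drug comparisons. Without the filter the counts were 9 for AML3 against AML2 with vehicle, 8 with JQ1 and 5 with OTX015, and 5 for OTX015 against vehicle in AML3, since low genes then enter. DESeq2 called 5 for the lines with vehicle; the cause was not tested. Promoters called without the filter came to 9 for the lines with vehicle and 7 for OTX015 in AML3. Shares called higher over all genes or promoters were not computed for these settings. The counts therefore show only how member calls move with the setting. Leaving out single libraries gave 3 to 4 members called in each line comparison, 3 to 3 for JQ1 and 2 to 3 for OTX015 against vehicle in AML3, and 0 to 0 in AML2, between compounds and for the interactions. The ratio differences then ran from −2.63 to −1.97 for HOXB2, −6.07 to −5.44 for HOXB4 and −2.22 to −1.66 for HOXB-AS3, with p = 0.0714 by the exact permutation test without any vehicle library, the smallest possible. With same-numbered JQ1 and OTX015 libraries averaged, added after seeing the data, they were −2.32, −5.86 and −1.94, each with an exact permutation p of 0.1, because 3 against 3 allow no smaller. Leading-promoter shares differed by 4.16 to 16.1 percentage points for HOXB2 and 1.42 to 3.12 for HOXB3. The difference between compounds, never called, changed sign for HOXB2 (0.04) without JQ1 replicate 2, for HOXB3 (−0.03) without JQ1 replicate 1, and for HOXB-AS3 with library size alone (0.02), replicates 1 and 2 alone (0.04), and without JQ1 replicate 1 (0.02), JQ1 replicate 2 (0.05) or OTX015 replicate 3 (0.18). Leaving out single libraries moved that difference between −0.46 and 0.04 for HOXB2, −0.03 and 0.14 for HOXB3, and −0.19 and 0.18 for HOXB-AS3. Fits of HOXB4 and HOXB7 that join no filter with another choice were added after seeing the data.

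With the replicate number as a block, 3 members were called in each line comparison and each AML3 drug comparison and 0 between compounds, so that the block changed no member's call. Depth limits HOXB4 to HOXB13, which had at most 17 tags in a library.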
